A study of Mus musculus with 9 samples.

Results

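The ABL and SRC family kinases and the adaptors that work with them were examined as 10 genes, Abl1, Abl2, Src, Fyn, Fgr, Yes1, Csk, Cbl, Crk and Crkl, out of 30142 named genes on the array. Each gene was found by its symbol in the array's annotation, and of probesets with exactly 1 symbol the brightest by mean over all 9 arrays stood for it. All 10 were found, Cbl with 2 probesets and the others with 1. The RNA came from LSK cells of mouse bone marrow, sorted as lineage-depleted cells by c-Kit and Sca-1, a population that holds the blood stem cells and earliest progenitors. The 4 KO mice had the genotype Abi1(-/-);Tg (Mx1-cre(+)) and the 5 WT mice Abi1(fl/fl);Tg (Mx1-cre(-)), so the WT mice carried floxed alleles and no Cre. All mice, KO and WT alike, were injected 3 times with poly(I:C) at 8 to 9 weeks, and marrow was taken at 12 to 14 weeks. Mx1 is an interferon-induced promoter that is active in many tissues, so the deletion is not limited to LSK cells, and recombination was checked by PCR in the marrow. Only KO mice carried Cre, and effects of Cre and of the deletion cannot be told apart. Each array held the RNA of 1 mouse.

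Abi1 encodes Abelson interactor 1, an adaptor that binds ABL tyrosine kinases and sits in the WAVE complex of actin assembly. ABL kinases, encoded by Abl1 and Abl2, are held inactive by their own folded structure and phosphorylate adaptors and actin regulators once they open. SRC family kinases are anchored to membranes, are switched off when CSK phosphorylates their tail, and act below antigen, cytokine and integrin receptors. CRK and CRKL link phosphorylated scaffolds to exchange factors of small GTPases, and CBL is the ubiquitin ligase that marks active tyrosine kinases for removal. CRKL is also a well-known substrate of the BCR-ABL fusion kinase of chronic myeloid leukaemia. The comparison bears on whether the genes of the kinases and adaptors around ABI1 change in level when Abi1 is deleted.

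Abi1 itself read 6.11, 5.82, 5.59 and 5.76 (log2 signal, KO replicates 1 to 4), against 11.65, 11.49, 11.50, 11.56 and 11.53 in WT replicates 1 to 5, so every array matched its label. It was the 1 gene that passed limma's adjusted p of 0.05 among the 30142 tested. A gene was called above background where it exceeded percentile 95 of 1717 olfactory and vomeronasal receptor genes of the same array, at log2 signals of 5.29 to 5.64. All 11 measured LSK markers, Kit among them, were above background on every array, while Ly6a and Hoxa9 were not analysed here. Of 7 T and NK cell markers 2 to 4 per array were above background, and of 7 B cell markers 2 to 5. All 5 megakaryocyte and platelet and all 5 mast cell and basophil markers were above background on every array. The count was 3 of 4 erythroid markers on each array, 6 to 9 of 10 monocyte and macrophage markers and 2 to 9 of 10 neutrophil markers. KO replicate 1 stood apart: its median correlation with the other arrays over all genes was 0.986, against 0.989 for WT replicate 5 and 0.993 to 0.996 for the other 7. Its background level was the highest, 5.64 against at most 5.37 on the others. Kit read 13.82 in KO replicate 1, under the 14.53 to 14.58 of KO replicates 2 to 4 and the 14.39 to 14.78 of the WT arrays. WT replicate 5 stood apart as well: the log2 of its summed erythroid marker signal was 8.29, where the lowest of the other arrays had 15.42, and its megakaryocyte and platelet sum was 11.42, where the lowest of the others had 14.57.

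Markers of other cell types differed in mean between the groups, though 0 of them passed limma's adjusted p of 0.05. Of all genes tested, 63.9% had higher means in KO. An unadjusted limma p under 0.05 with a higher mean in KO was found for 3.82% of them. All 7 B cell markers had higher means in KO (median difference 0.34), 4 with an unadjusted p under 0.05, and their sum was 9.10 to 9.41 in KO and 8.73 to 8.91 in WT. All 5 mast cell and basophil markers had higher means in KO (median 0.82), 3 with an unadjusted p under 0.05. Their sum was 13.50 to 14.31 in KO and 12.86 to 14.24 in WT. Their mean log2 signal was 8.378 to 8.832 in KO and 7.362 to 8.358 in WT. KO and WT arrays did not overlap for 3 of the 5 markers, and for 0.856% of all genes. Means were also higher in KO for 10 of 10 neutrophil, 4 of 4 erythroid, 5 of 5 megakaryocyte and platelet, 6 of 10 monocyte and macrophage and 3 of 7 T and NK cell markers. Of the 11 LSK markers 3 had higher and 8 lower means in KO (median -0.15). The part of these markers in the results that follow was not tested.

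Of the 10 genes, 7 were above background on all 9 arrays: both ABL kinases, the SRC family kinase Fyn, the SRC-inactivating kinase Csk, the ubiquitin ligase Cbl and both adaptors Crk and Crkl. Src exceeded the level on 8 of 9 arrays by at most 0.19, and Fgr and Yes1 on 0 of 9. Levels of different probesets are not comparable on arrays of this kind, so the genes are placed against background and not ranked against each other. At percentile 99 of the receptor genes the same 7 stayed above on all arrays, and Src on 0 of 9. At percentile 95 of the array's control probesets marked neg, a level of 10.70 to 12.27, only Cbl and Crkl were above on all 9 arrays and Fyn on 2.

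**Figure D1:**
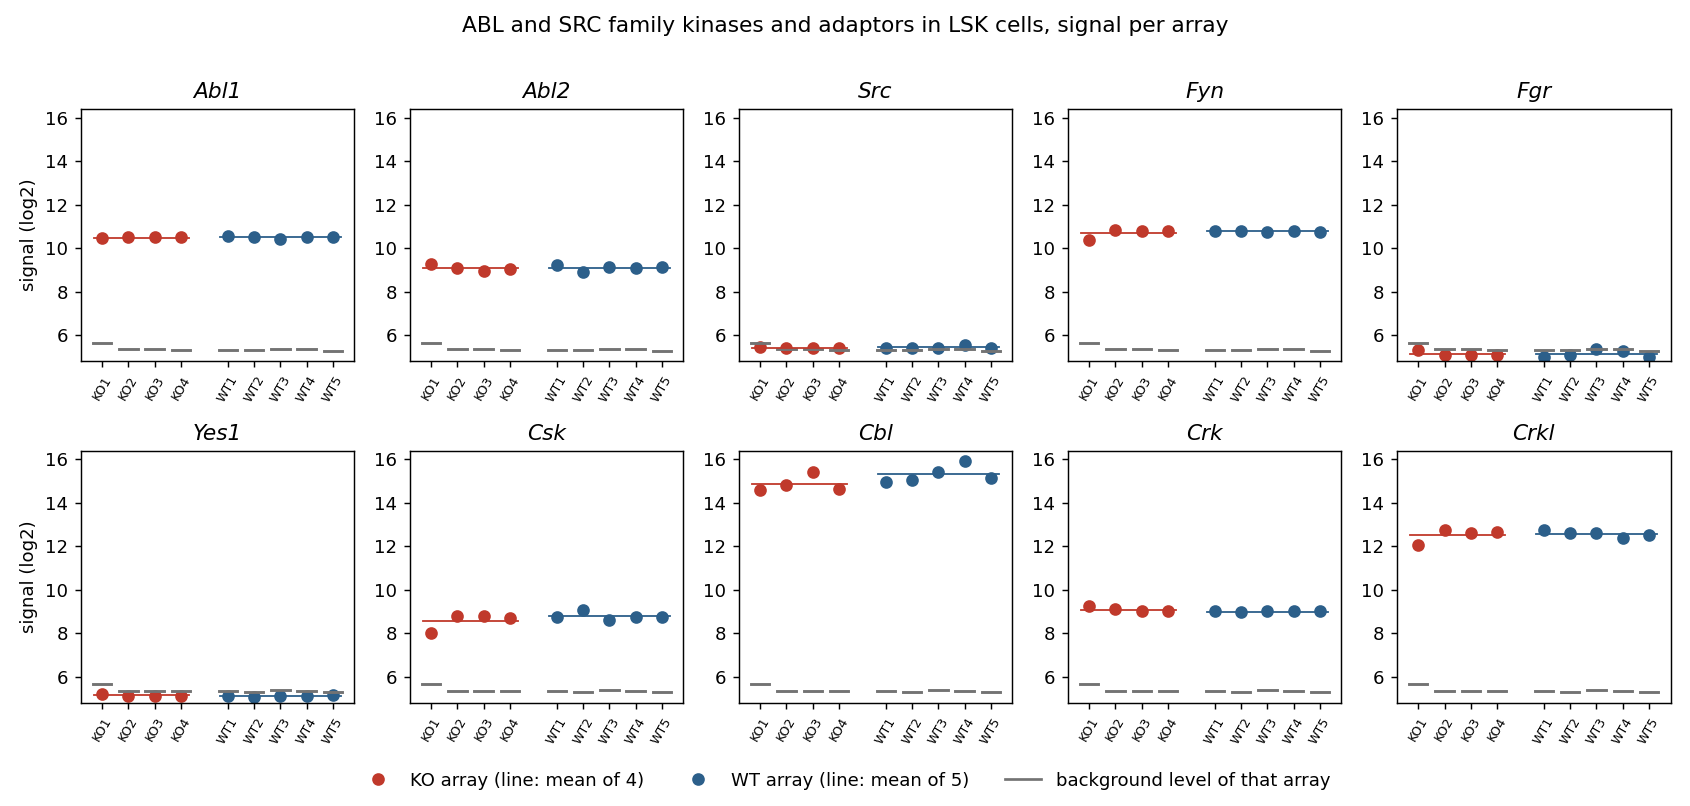
Signal of each of the 10 genes (y axis, log2) in each array (x axis), with KO arrays in red, WT arrays in blue, group means as coloured lines and each array's background level as a grey bar. Abl1, Abl2, Fyn, Csk, Cbl, Crk and Crkl lie well above the grey bars in all 9 arrays, Src lies on them, and Fgr and Yes1 lie below.

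The SRC family thus split by detection, and the promoter windows of Fyn, Src, Yes1 and Fgr are shown so that the sequence at the start of the detected gene can be set beside those of the others. The windows run from 250 bases before to 50 after a RefSeq transcript start (build GRCm38.p6), each given 5′ to 3′ on the plus strand, on which all 4 genes lie, with CG dinucleotides in capitals. Fyn lies at chr10:39369549-39369848, Src at chr2:157424043-157424342, Yes1 at chr5:32610921-32611220 and Fgr at chr4:132973845-132974144.
Fyn: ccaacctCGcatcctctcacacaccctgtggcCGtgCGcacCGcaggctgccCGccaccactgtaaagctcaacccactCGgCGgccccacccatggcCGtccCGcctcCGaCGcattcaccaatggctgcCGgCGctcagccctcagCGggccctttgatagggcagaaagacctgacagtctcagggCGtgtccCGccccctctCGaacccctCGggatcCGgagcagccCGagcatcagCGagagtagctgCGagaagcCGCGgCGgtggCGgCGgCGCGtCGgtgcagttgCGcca
Src: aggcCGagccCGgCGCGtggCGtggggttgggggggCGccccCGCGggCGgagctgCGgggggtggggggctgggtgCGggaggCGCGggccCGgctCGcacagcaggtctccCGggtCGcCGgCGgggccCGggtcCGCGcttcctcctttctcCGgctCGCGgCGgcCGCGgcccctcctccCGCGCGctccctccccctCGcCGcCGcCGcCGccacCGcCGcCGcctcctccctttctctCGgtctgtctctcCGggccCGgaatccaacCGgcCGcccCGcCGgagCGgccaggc
Yes1: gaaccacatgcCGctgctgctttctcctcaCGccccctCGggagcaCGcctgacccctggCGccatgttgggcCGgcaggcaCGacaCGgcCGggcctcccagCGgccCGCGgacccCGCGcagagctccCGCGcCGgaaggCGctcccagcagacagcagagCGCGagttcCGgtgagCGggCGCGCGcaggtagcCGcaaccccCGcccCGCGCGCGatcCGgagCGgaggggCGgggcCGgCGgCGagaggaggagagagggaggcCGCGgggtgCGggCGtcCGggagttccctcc
Fgr: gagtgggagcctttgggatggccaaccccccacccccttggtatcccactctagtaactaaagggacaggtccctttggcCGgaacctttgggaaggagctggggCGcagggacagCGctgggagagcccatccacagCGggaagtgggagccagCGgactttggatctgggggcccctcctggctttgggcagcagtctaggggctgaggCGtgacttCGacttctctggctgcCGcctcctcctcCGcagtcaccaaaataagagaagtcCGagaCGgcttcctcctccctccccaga
The Fyn window held 31 CG, Src 47, Yes1 42 and Fgr 11, where the median over 32851 windows of the same length was 7. Windows with at least as many made up 10.6% of all for Fyn, 1.44% for Src, 3.03% for Yes1 and 41.4% for Fgr. All 12 windows of the 10 genes exceeded that median, those of Abl1 with 23 and 20, Abl2 with 31, Csk with 24 and 9, Cbl with 43, and Crk and Crkl with 27 each. Src and Yes1 had more CG than Fyn, and Fgr had fewer. A link between the number of CG and detection was not tested. Which start LSK cells use was not measured.

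Fyn encodes a widely expressed SRC family kinase. It read 10.38, 10.84, 10.79 and 10.79 (log2 signal, KO replicates 1 to 4), against 10.79, 10.80, 10.75, 10.79 and 10.74 in WT replicates 1 to 5. KO replicate 1 was the lowest of the 9 arrays, the other KO arrays lay within or just above the WT range, and the groups overlapped. The difference was -0.074 (SE 0.091), 95% interval -0.28 to 0.13 (limma adjusted p = 0.809). Leaving out KO replicate 1 gave 0.033 (interval -0.023 to 0.088).

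Src, the founding member of the family, read 5.45, 5.43, 5.41 and 5.43 in KO, against 5.43, 5.43, 5.43, 5.53 and 5.43 in WT. The array with the highest value was WT replicate 4, and 6 of the 9 arrays held the single value 5.43. The difference of -0.020 (SE 0.034) did not pass (limma adjusted p = 0.852). Fgr, a kinase of neutrophils and monocytes, read 5.31, 5.10, 5.10 and 5.09 in KO, against 4.98, 5.08, 5.36, 5.25 and 5.00 in WT. Yes1, a near relative of Src, read 5.21, 5.13, 5.13 and 5.13 in KO, against 5.13, 5.07, 5.13, 5.13 and 5.16 in WT. Both genes were below background on every array, so no fold is given, and their limma adjusted p-values were 0.960 and 0.816. In KO replicate 1, 7 of 10 neutrophil markers were above background and the log2 of their summed signal was 13.74. This sum was 12.69 for KO replicate 2, 9.70 for KO replicate 3, 10.08 for KO replicate 4, and 9.23 to 10.71 over the WT arrays. Fgr stayed below background in that array too.

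Of the other SRC family and SRC-related kinases, Blk of B cells, Frk, Srms and Ptk6 were measured, and 0 of the 4 exceeded background on any array. Blk read 5.12 on all 9 arrays. Frk read 4.46 to 4.50 in KO and 4.37 to 4.67 in WT. Srms read 4.68 to 4.70 in KO and 4.68 to 4.81 in WT. Ptk6 read 4.12 to 4.31 in KO and 4.12 on every WT array. Other kinases of the family were not analysed here, so Fyn being the one above background on all 9 arrays holds only for the 8 kinases measured.

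Both ABL kinase genes were detected, Abl1 averaging 10.49 over the KO arrays and 10.50 over the WT arrays, and Abl2 9.09 in either group. Abl1 encodes the kinase after which ABI1 is named. It read 10.46, 10.50, 10.50 and 10.50 in KO, against 10.56, 10.50, 10.44, 10.50 and 10.50 in WT. The groups overlapped, and 6 arrays, 3 of each group, held the value 10.50. The difference was -0.010 (SE 0.033), with an interval from -0.087 to 0.067 (limma adjusted p = 0.931), which corresponds to between 0.942-fold and 1.05-fold if the deposited values are log2.

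Abl2 encodes the related kinase ARG, which in addition binds actin filaments. It read 9.26, 9.07, 8.97 and 9.06 in KO, against 9.22, 8.90, 9.12, 9.07 and 9.14 in WT. The highest value was that of KO replicate 1 and the lowest that of WT replicate 2, with overlap throughout. The SD was 0.12 over the 4 KO arrays and 0.12 over the 5 WT arrays. The interval of the difference ran from -0.18 to 0.18 (limma adjusted p = 1.0), or 0.883-fold to 1.13-fold.

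Csk, the kinase that switches SRC family members off, read 8.02, 8.80, 8.80 and 8.70 in KO, against 8.75, 9.07, 8.62, 8.75 and 8.73 in WT. KO replicate 1 lay 0.75 under the mean of the other KO arrays, which themselves lay within the WT range. The difference of -0.20 (SE 0.17; interval -0.60 to 0.19; limma adjusted p = 0.786) fell in size to -0.017 (interval -0.25 to 0.21) once KO replicate 1 was left out.

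Cbl had the widest spread and the largest difference of the 10. Its brightest probeset read 14.61, 14.80, 15.40 and 14.65 in KO, against 14.97, 15.06, 15.43, 15.94 and 15.12 in WT. KO replicates 1, 2 and 4 lay below every WT array, and KO replicate 3 lay among the WT values, so the groups overlapped. KO arrays averaged 14.87 ± 0.37 (SD, n = 4), and WT arrays 15.30 ± 0.40 (SD, n = 5). The difference was -0.44 (SE 0.24), with an interval from -0.98 to 0.10 (limma adjusted p = 0.786), with p = 0.135 by exact two-sided permutation. It was -0.35 without KO replicate 1 and -0.28 without WT replicate 4, the highest array. Without KO replicate 3 it was -0.62, with an interval from -1.13 to -0.11 (limma adjusted p = 0.665).

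The second Cbl probeset read 11.83, 12.74, 12.73 and 12.74 in KO, against 12.74, 12.74, 12.74, 12.89 and 13.02 in WT. Here KO replicate 1 alone was low, and KO replicates 2 and 4 equalled 3 WT arrays. Its difference was -0.32 (SE 0.19; interval -0.76 to 0.13; limma adjusted p = 0.784 over 30604 probesets), in a fit of every probeset that was added after the data were seen. Both probesets thus had lower means in KO, with KO replicate 1 the lowest array of each, while KO replicates 2 and 4 lay under the WT range on the first probeset and within it on the second.

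Crk and its homologue Crkl carry the same adaptor function, and neither difference passed the test. Without KO replicate 1 both were above 0. Crk read 9.24, 9.11, 9.00 and 9.00 in KO, against 9.00, 8.98, 9.00, 9.00 and 9.00 in WT. KO replicates 1 and 2 lay above every WT array, while KO replicates 3 and 4 held the value 9.00 found in 4 of 5 WT arrays. The difference was 0.092 (SE 0.053; interval -0.029 to 0.21; limma adjusted p = 0.786; exact two-sided permutation p = 0.119), and 0.041 without KO replicate 1.

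Crkl read 12.07, 12.75, 12.60 and 12.67 in KO, against 12.73, 12.60, 12.60, 12.38 and 12.53 in WT. KO replicate 1 was the lowest array and KO replicate 2 the highest. The difference was -0.046 (SE 0.14; interval -0.36 to 0.27; limma adjusted p = 0.923) and 0.11 (interval -0.080 to 0.29) without KO replicate 1, so its sign was set by that array.

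**Figure D2:**
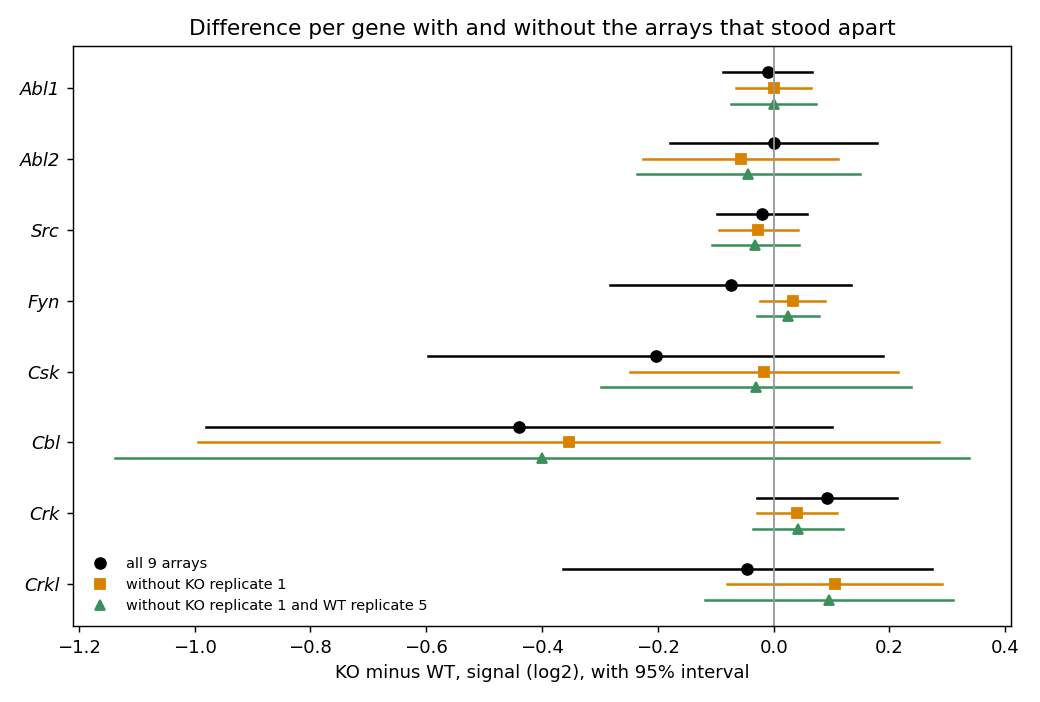
KO minus WT difference in log2 signal (x axis) with its 95% interval from limma for the 8 genes with any array above background, for all 9 arrays (black), with KO replicate 1 left out (orange), and with WT replicate 5 left out too (green). Every interval includes 0, and the points of Fyn, Csk and Crkl move by over 0.10 when KO replicate 1 is left out.

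Across the 10 genes, 0 passed an adjusted p of 0.05 in limma, where 0.00332% of all genes tested did. An unadjusted p under 0.05 was found for 0 of the 10 in either direction. Of all genes 5.01% had one, 3.82% with higher and 1.19% with lower means in KO. The groups overlapped for all 10, while 0.856% of all genes had KO and WT arrays that did not overlap. Means were higher in KO for 3 genes, lower for 6 and equal for 1, and 63.9% of all genes had higher means in KO. The median difference of the 10 was -0.015, against 0.034 over all genes. In bulk samples such as these, fewer cells of a type and less RNA per cell cannot be told apart. The residual SD was below the median of genes above background, 0.20, for 5 of the 8 genes whose mean was above background, Abl1 at 0.035 and Src at 0.036 being the smallest and Cbl at 0.38 the largest.

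Part of the small spread came with repeated values. Abl1, Src, Yes1 and Crk each held 1 identical value in 6 of the 9 arrays. A value repeated in at least 5 arrays occurred in 25.8% of all genes and in 13.2% of genes above background. How the deposited values came to repeat is not given in the sources used here. The intervals of Abl1, Src and Crk rest on these values.

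KO replicate 1 was the single lowest of the 9 arrays for Fyn, Csk, Cbl and Crkl and the single highest for Abl2 and Crk, 6 of the 8 genes above background. Over all 16023 genes above background it was lowest for 23.0% and highest for 27.1%, against 4.69% to 24.1% and 3.58% to 12.0% for the other arrays, so an extreme position of this array was common in the whole table. WT replicate 5 was the lowest array for 24.1% of these genes. KO replicate 1 also had the lowest Kit signal, the highest neutrophil marker sum and the highest background of the 9 arrays. KO replicate 2 had the next highest neutrophil marker sum, 12.69, with Kit at 14.58 and a background of 5.36. The part of these traits in the result was not tested.

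**Figure D3:**
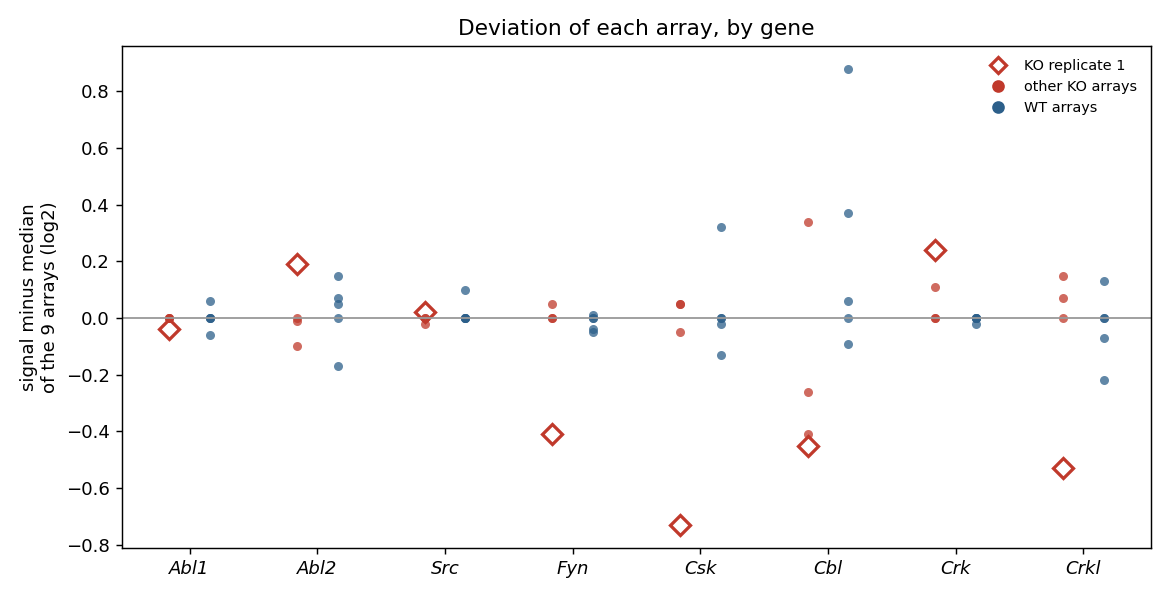
Signal of each array minus the median of the 9 arrays (y axis, log2) for the 8 genes with any array above background (x axis), with KO replicate 1 as an open red diamond, the other KO arrays in red and WT arrays in blue. The diamond lies lowest for Fyn, Csk, Cbl and Crkl and highest for Abl2 and Crk, while for Cbl the WT arrays also spread widely.

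The wider pathway was read in 6 lists of related genes, of which 68 of 77 genes were measured and 56 had a mean above background. Of the 68, 0 rose and 0 fell past limma's adjusted p of 0.05, and 0 had an unadjusted limma p under 0.05. By exact two-sided permutation 2 of the 68, Ptpn12 and Cables1, and 0 of the 10 kinases and adaptors had an unadjusted p under 0.05, where 4.9% of all genes tested had one. Means were higher in KO for 27, lower for 40 and equal for 1, with a median difference of -0.018. The genes given below as examples were chosen after their values were seen.

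The 14 measured relatives, anchors and phosphatases around CSK, all above background, had the lowest median, -0.13, with 11 lower and 3 higher means in KO. Pstpip1, which encodes a scaffold between a tyrosine phosphatase and actin, had the largest difference, -0.41 (SE 0.27), and read 9.08, 9.99, 9.63 and 9.79 in KO, against 9.81, 9.71, 9.62, 10.25 and 10.76 in WT. The groups overlapped, with KO replicate 1 lowest and WT replicate 5 highest, and the difference was -0.23 without KO replicate 1 and -0.23 without WT replicate 5. The phosphatase gene Ptpn12 differed by -0.29 (SE 0.18; limma adjusted p = 0.786; unadjusted exact permutation p = 0.0238), reading 10.50, 11.36, 11.40 and 11.38 in KO, against 11.58, 11.40, 11.40, 11.42 and 11.45 in WT. It was -0.07 without KO replicate 1. Ptpn22, a phosphatase that acts on SRC family kinases, differed by -0.24, with KO replicate 1 at 8.80 and the other KO arrays at 9.47 to 9.48, and by -0.075 without KO replicate 1. The leukocyte phosphatase gene Ptprc (CD45), an activator of SRC family kinases, read 11.24 to 11.58 in KO and 11.15 to 12.05 in WT, and the sign of its difference turned when WT replicate 5 was left out (-0.091 with it and 0.043 without). Ptpn6, which encodes the phosphatase SHP-1, differed by -0.20, and by -0.075 without KO replicate 1. The median of the list was -0.084 without KO replicate 1 and -0.034 with WT replicate 5 left out as well. With 1 array left out it ran from -0.20 (without KO replicate 2) to -0.069 (without KO replicate 4). With median centring it was -0.18, with 13 lower means and 1 higher.

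Among 11 CBL family genes and partners, 5 had higher and 6 lower means, with a median difference of -0.0085 that turned to 0.012 with quantile normalization (7 higher and 4 lower). Cblb, the closest relative of Cbl, read 9.49, 10.17, 10.17 and 10.18 in KO, against 10.17, 10.17, 9.92, 10.17 and 10.40 in WT. KO replicate 1 was the lowest array and WT replicate 3 the next, and the difference was -0.16, or 0.0073 without KO replicate 1. Cblc was below background on every array. Spry2, a feedback inhibitor of receptor tyrosine kinase signalling, had the largest difference, 0.38 (SE 0.19), with KO replicate 1 highest at 11.15, the other KO arrays at 10.18 to 10.63 and WT at 10.03 to 10.40, and was 0.18 without KO replicate 1. Grb2, the adaptor that recruits CBL to receptors, differed by -0.18 (0.055 without KO replicate 1), and read 11.54 in KO replicate 1 and 12.38 to 12.64 in the other KO arrays.

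Among 17 CRK partners, 6 had higher and 11 lower means, with a median difference of -0.042, and 9 higher and 8 lower without KO replicate 1 (median 0.0047). Bcar1, which encodes the scaffold p130Cas, stayed close to background at 5.61 on all KO arrays and 5.60 to 5.71 in WT, while Gab2, another scaffold of haematopoietic cells, read 8.56 to 9.59 in KO and 8.83 to 9.89 in WT. Rapgef1, the exchange factor that binds CRK, had an interval from -0.068 to 0.10. Dock2, the leukocyte exchange factor for RAC, differed by -0.22 (SE 0.15), and by -0.06 without KO replicate 1. Map4k1 differed by -0.21 (0.043 without KO replicate 1), with KO replicate 1 at 11.55 and the other KO arrays at 12.45 to 12.77.

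The 12 measured ABL partners and substrates had a median difference of 0.038, with 8 higher and 4 lower means. The median ran from 0.0087 (without WT replicate 2) to 0.048 with 1 array left out, and was -0.0088 with median centring, with 5 higher and 7 lower means. Abi2, the paralogue of Abi1, read 10.56 to 10.69 in KO and 10.49 to 10.89 in WT. Bcr, the partner of ABL in the leukaemia fusion, had an interval from -0.19 to 0.30. Hcls1, the haematopoietic relative of cortactin, read 11.35 to 11.66 in KO and 11.59 to 11.64 in WT, and its difference was -0.056, or 0.015 without KO replicate 1. Cables1 differed by -0.24 (SE 0.12; limma adjusted p = 0.786; unadjusted exact permutation p = 0.0476), reading 6.31, 6.41, 6.32 and 6.11 in KO, against 6.44, 6.37, 6.42, 6.48 and 6.93 in WT. WT replicate 5 was the highest array, and the difference without it was -0.14. Of 10 other cytoplasmic tyrosine kinases, 6 had a mean above background, Syk, Btk, Tec, Fes, Ptk2b and Tnk2, with a median difference over all 10 of -0.002. Ptk2b, a relative of focal adhesion kinase, read 11.11, 12.44, 12.32 and 12.28 in KO, against 12.44, 12.46, 11.65, 12.73 and 12.32 in WT, with KO replicate 1 lowest and WT replicate 3 next, and differed by -0.28, or 0.027 without KO replicate 1.

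**Figure D4:**
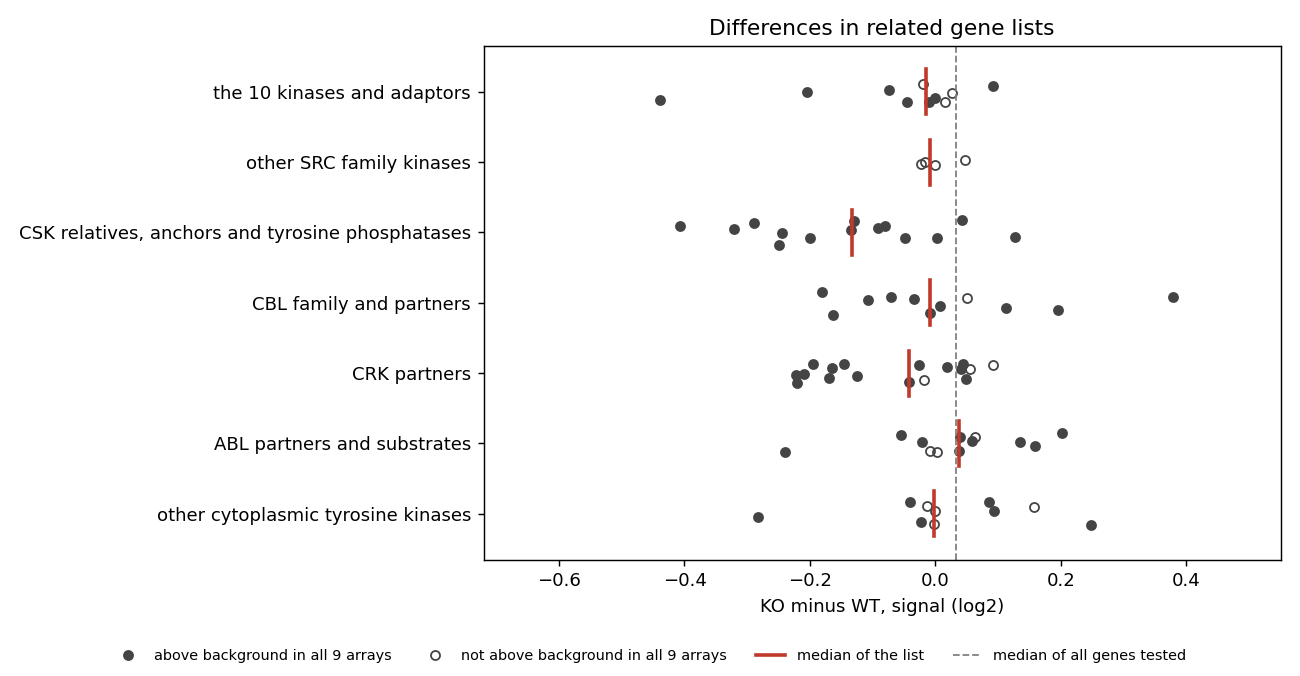
KO minus WT difference in log2 signal (x axis) of every measured gene of the 10 kinases and adaptors and of 6 related lists (rows), filled where the gene was above background in all 9 arrays, with list medians in red and the median of all genes tested, 0.034, as a dashed line. The differences lie between -0.44 and 0.38, and the list around CSK has the lowest median, -0.13.

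For each kinase or adaptor, the 3 genes with the highest Pearson r to it over the 9 arrays were listed. They were picked from the 16023 genes above background, as a description of arrays that share the same deviating libraries. Fyn was most like Gnb1 (r = 0.999), Iqgap1 (r = 0.997) and Heatr5b (r = 0.993), which had their KO replicate 1 at 12.78, 12.15 and 8.41. Without KO replicate 1 and WT replicate 5 these correlations over 7 arrays were 0.978, 0.954 and 0.775. Csk was most like Fkbp8, Capn1 and Coq8b, at 0.992, 0.991 and 0.990 over 9 arrays and 0.958 to 0.962 over 7. Cbl was most like Agpat3, Alkbh6 and Wwp1 (0.940, 0.938 and 0.929), and Crkl like Trip10, H2-T10 and Setd1b (0.965, 0.965 and 0.962). Crk was most like Sftpb, Hes1 and Olfr328 (0.990, 0.985 and 0.984), and Abl2 like E130018O15Rik, Gm25418 and Gm10410 (0.958, 0.936 and 0.931). Abl1 was most like Stk40, Strn4 and Plekho2 (0.974, 0.973 and 0.950), a likeness that rests on the 3 arrays in which Abl1 departs from 10.50. For the genes at or below background, Src was most like Rcn2, Ikzf4 and Lrrc9 (0.991, 0.979 and 0.976). Fgr was most like Pilra, Dusp18 and Atp23 (0.994, 0.95 and 0.948). Yes1 was most like Slc22a12, Slc39a2 and Gm26013 (0.996, 0.987 and 0.986). Src, Yes1 and Crk also held 1 value in 6 of the 9 arrays, so their likeness rests on the other 3 arrays. For Src it rests mostly on WT replicate 4 at 5.53, where the repeated value was 5.43.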

How the data were processed

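Gene expression was measured on Affymetrix whole-transcript arrays, 1 per mouse, from 5 ng of total RNA amplified before labelling, per the labels' protocols. The deposited values are 1 signal per probeset and array, read here as log2 from their range of 1.84 to 19.45. Which log base, background correction and normalization the authors used is not stated in the labels. The submitters' processing notes name Partek 6.6. Of 65956 target probesets 30604 carried 1 symbol, 2146 several and 33206 were not listed in the platform annotation. 827 symbols were updated through Entrez identifiers to RefSeq GRCm38.p6, from which the promoter sequences also come (all 10 genes matched).

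The fit was limma's (version 3.58.1, R 4.3.3; lmFit and eBayes without trend or covariate) for KO minus WT over 30142 genes, with Benjamini-Hochberg adjustment over all of them. The fit was also run on simulated arrays with known changes, built from these genes' means and variances with independent noise. Deviating arrays and repeated values were not simulated, and the outcome is not given here. Single genes were also tested by two-sided exact permutation of the arrays' group labels (126 ways). The number of arrays limits the precision, and the median standard error of genes above background was 0.13. The genes and lists were chosen with earlier results of these data known. By the naming rule, the text names all 10 genes, Abi1, the other SRC family kinases, list genes with an unadjusted limma p under 0.05 (there were 0), and the 3 most alike genes. Other list genes were chosen as examples after their values were seen. KO and WT share replicate numbers 1 to 4, but the labels tie them to nothing. Same-numbered arrays' deviations from their group means correlated at -0.18, 0.15, -0.013 and 0.27. Those of differently numbered arrays correlated at -0.366 to 0.345, and the numbers were not taken as pairs. Other normalizations, filters, weights, a replicate block and left-out arrays were tried as alternatives.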

Additional observations from a re-analysis of the deposited data

Results flagged for a closer look

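An array's distance to its nearest neighbour within its group, as a share of the group's range, marked 11 values in 27 groups of 4 or 5 arrays, where chance marks about 1 in 20 groups. Values repeated between arrays raise this share to 1 for differences of a few hundredths. KO replicate 1 was the lowest of its group for Abl1 at 10.46, Fyn at 10.38 and Csk at 8.02, and the highest for Fgr at 5.31, Yes1 at 5.21, Srms at 4.70 and Ptk6 at 4.31. The last 4 genes are below background in every array, where this array also had the highest background level, 5.64. Of the WT arrays, replicate 2 stood high for Csk at 9.07 and low for Crk at 8.98, replicate 4 stood high for Src at 5.53, and replicate 5 stood high for Srms at 4.81. For Crk and Src the other 4 WT arrays held 1 value.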

How the results depend on the processing

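The count of the 10 genes past an adjusted p of 0.05 in limma was 0 under every alternative run. At an unadjusted p under 0.05 there was 1 with quantile normalization (Crk at 0.14, adjusted p = 0.917) and 1 without KO replicate 3 (Cbl at -0.62, adjusted p = 0.665), and 0 under the others. Of the 68 related genes 0 passed the adjusted p under any alternative, and 0 to 2 had an unadjusted limma p under 0.05. Cables1 did with quantile normalization, median centring and array weights, and Spry2 with the replicate block and without KO replicate 4. Matk did without KO replicate 2, and Bmx and Sla without WT replicate 3. The median difference of the 10, -0.015, was -0.062 with median centring, -0.044 with quantile normalization, and -0.031 to -0.0075 with 1 array left out. Over all genes 1 passed, Abi1, and 2 with array weights, where KO replicate 1 had a weight of 0.11 and Igll1 was added. Genes above background on all arrays numbered 7, or 2 by the control probesets marked neg. Signs turned for small differences: Abl1 to 0.013, Fgr to -0.034 and Yes1 to -0.020 with quantile normalization; Fgr to -0.031 and Yes1 to -0.021 with median centring; Fyn to 0.011, Fgr to -0.023 and Crkl to 0.067 with array weights; Fyn to 0.024, Fgr to -0.071 and Crkl to 0.096 without KO replicate 1 and WT replicate 5. The cause was not tested. With 1 array left out, Abl1 ran from -0.025 to 0.005, Abl2 from -0.057 to 0.040, Src from -0.027 to 0, Fyn from -0.12 to 0.033, Fgr from -0.037 to 0.073, Csk from -0.28 to -0.017, Cbl from -0.62 to -0.28, Crk from 0.041 to 0.12, Crkl from -0.12 to 0.11, Frk from -0.048 to 0.028 and Srms from -0.030 to 0.0025. With the replicate block, 1 gene passed over all genes and 0 of the 10, and it changed no call. WT replicate 5 has no KO array of its number, so the block takes it out of the difference. Fgr thus turned to -0.018 and Srms to 0.0025, the same values as without WT replicate 5. Of the same-numbered pairs, 2 of 4 correlated above 0.1, and all 4 lay within the range of the differently numbered pairs, -0.366 to 0.345. The intervals given are for single genes, without adjustment for the number of genes tested, and are not detection limits. The B cell marker Ebf1 had an interval from 0.24 to 0.72, which leaves out 0, and still had a limma adjusted p of 0.786. The smallest difference that would pass the adjusted p with 9 arrays is not given here.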
